A study of Mus musculus with 9 samples.

Results

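Single promoters with the MyoD E-box are MyoD1 binding regions that lie at a protein-coding promoter without a divergent partner gene and hold the sequence CAGCTG. Peaks of 6 CUT&RUN libraries were merged where they overlapped or touched, which gave 18773 regions with a peak in at least 2 of 6 libraries. Of these, 4245 were members, since their centre lay within 1 kb of a protein-coding transcript start, they were not at a divergent pair of starts of different genes at most 1 kb apart, and the merged interval held CAGCTG. A further 2857 single promoters held no CAGCTG, and 700 regions lay at divergent (bidirectional) promoters. The members were nearest to 4131 genes, and 4225 genes had a start within 1 kb of a member centre, so some members lay near the starts of more than 1 gene. All 6 libraries came from C2C12 cells, a mouse skeletal myoblast line, of the genotype C2C12 MyoD1::Halo + iMyoD1, in which Myod1 carries an N-terminal 3xFlag-Halo tag at its own locus and a doxycycline-responsive promoter drives an additional 3xFlag-Halo-MyoD1 transgene. The tagged line is 1 clone. All cultures were switched to differentiation medium, 3 without doxycycline (no dox) and 3 with doxycycline for 6 h (+dox), so that the comparison asks how added MyoD1 is met at these promoters. The labels call the 3 libraries of each group biological replicates. Wild-type cells gave 3 more libraries, which were not analysed here, and the values therefore lack a level from untagged cells. The lists hold no expression values, so the cell identity was not checked against markers.

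MyoD1 is a basic helix-loop-helix transcription factor of the muscle lineage that binds DNA as a dimer with E-proteins such as those encoded by Tcf3, Tcf4 and Tcf12. The dimer reads the E-box, CANNTG, and the form with a GC centre, CAGCTG, is the one it prefers, best with a purine just 5′ of it on each strand. Id proteins bind E-proteins and keep such dimers from DNA, and Notch effectors of the Hes and Hey families are counted among the brakes on myogenic differentiation.

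The E-boxes of 17 members are shown to place the sequence that defines the class beside the values given further on. They are 5 of the members with the highest peaks, 8 members at genes of the neuromuscular junction, the calcium channel and the sarcomere, and 4 at genes of Id, Notch and SnoN signalling. Each line gives 30 bases of mm10, 5′ to 3′ on the strand of the gene, with CAGCTG in capitals. The copy shown is the one nearest to the median position of the peak maximum.
Angptl2, chr2:33215719-33215748, plus strand: cttgcacagccgCAGCTGctcaagtccgtt
Rtkn, chr6:83137692-83137721, plus strand: cctgcccccttcCAGCTGtgcctgcccctc
Esyt1, chr10:128525841-128525870, minus strand: ctgagctgcctgCAGCTGctcgggcgggca
Mafa, chr15:75748450-75748479, minus strand: gcaggagattgaCAGCTGggctccgggttg
Plec, chr15:76205333-76205362, minus strand: gactggcaggacCAGCTGttggcatagtcg
Chrna1, chr2:73580365-73580394, minus strand: tagctgtggagtCAGCTGgcttccaaggcc
Chrng, chr1:87205667-87205696, plus strand: gcagtggtcagaCAGCTGgtggggccagct
Rapsn, chr2:91035586-91035615, plus strand: aactggcagggaCAGCTGcagacaggggct
Musk, chr4:58285882-58285911, plus strand: gtgagttctcccCAGCTGgccacgtccatc
Cacng1, chr11:107716551-107716580, minus strand: gacacgcctgagCAGCTGctccgactgccc
Des, chr1:75360244-75360273, plus strand: agagggatcctgCAGCTGtcaggggagggg
Tnnt1, chr7:4514547-4514576, minus strand: gacaaaagaaaaCAGCTGtggtgaaggagg
Tpm2, chr4:43523812-43523841, minus strand: tctgtgcccaggCAGCTGccgtgagctcac
Id1, chr2:152735273-152735302, plus strand: gggtgatctccgCAGCTGctgcgccgtggg
Hes1, chr16:30064145-30064174, plus strand: gctcgagcacagCAGCTGctatttaccttc
Mfng, chr15:78773558-78773587, minus strand: ggtggctcccagCAGCTGcctctggggctt
Skil, chr3:31094392-31094421, plus strand: gggccgggcggcCAGCTGcggccgcggggg

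The copy shown lay 42 bp upstream of the start of Chrna1, 19 bp upstream of that of Rapsn and 44 bp upstream of that of Cacng1, the genes of the acetylcholine receptor alpha subunit, of its clustering protein rapsyn and of a calcium channel subunit. At Des, the muscle intermediate filament gene, it lay 70 bp upstream, and at Id1 963 bp upstream. At Esyt1, an extended synaptotagmin that tethers the endoplasmic reticulum to the plasma membrane, it lay 14 bp downstream in an untranslated exon. In these 6 members the copy was between 2.5 and 70 bp from the median position of the peak maximum. The members shown do not stand for all members in this. In the 6 libraries 37.9 to 41.1% of member maxima lay within 100 bp of a CAGCTG. At other named members the nearest copy lay farther from the maximum, as at Chrnd (173 bp), Pkm (240 bp) and Gltp (775 bp).

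The libraries differed in depth and in the number of peaks. The lists held 116126 peaks, between 9389 and 53661 a library, from 2868000 to 8030000 alignments a library. The longest list was that of +dox replicate 3. The lowest total signal of a list was 354 and 336 CPM in the replicates numbered 3 and 837 to 904 CPM in the other libraries, so calling reached lower in the replicates numbered 3. The height of a peak is its maximum coverage scaled to the alignments of its library (CPM), and its height percentile is the rank of that maximum within the list of its own library. In cultures of many cells, binding in more cells and more binding in each cell cannot be told apart.

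Promoters with CAGCTG carried a MyoD1 peak more often than promoters without it in all 6 libraries. This was tested on 26506 annotated single protein-coding promoters, whether bound or not, of which 26.9% hold CAGCTG in the 500 bp around the start, so that the width of a peak has no part in the choice. In the no dox libraries the share with a peak was 6.40, 5.69 and 5.76 percentage points higher with CAGCTG than without it, and in the +dox libraries 3.93, 4.89 and 4.94 points higher. The mean difference was 5.27 ± 0.868 points (SD, n = 6 libraries; exact two-sided sign-flip test, p = 0.031, adjusted p = 0.031, the smallest p that 64 sign patterns allow). With libraries of the same number taken as 3 pairs, the same difference had an exact p of 0.25, the smallest that 3 pairs allow, and so did not pass. The 3 no dox differences (5.95 ± 0.393, SD, n = 3) lay above all 3 +dox differences (4.58 ± 0.571, SD, n = 3). This comparison of the groups was chosen after the values were seen, and its exact two-sided permutation p was 0.1, the smallest that 3 against 3 libraries allow.

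The share with a peak also followed the number of CAGCTG copies. Among the 19384 promoters with no copy it was 14.1, 19.8 and 11.1% in the no dox libraries and 22.0, 20.2 and 32.9% in the +dox libraries. Among the 5889 promoters with 1 copy it was 20.0, 25.05 and 16.1% without dox and 25.5, 24.5 and 37.1% with dox. Among the 203 promoters with 3 or more copies it was 27.6, 26.6 and 22.2% without dox and 35.5, 31.0 and 48.3% with dox. The share rose with each step in copies except the last in no dox replicate 2, where the 1030 promoters with 2 copies were at 27.8%. GC content moved with the share by far more than the E-box did. In the quintile of promoters with the lowest GC content (median 39.4%) between 0.151 and 1.38% had a peak across libraries, and in the quintile with the highest (median 70.6%) between 26.9 and 67.6% did. Within quintiles of GC content the mean difference between promoters with and without CAGCTG was 4.05 points and lay above 0 in 6 of 6 libraries.

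**Figure D1:**
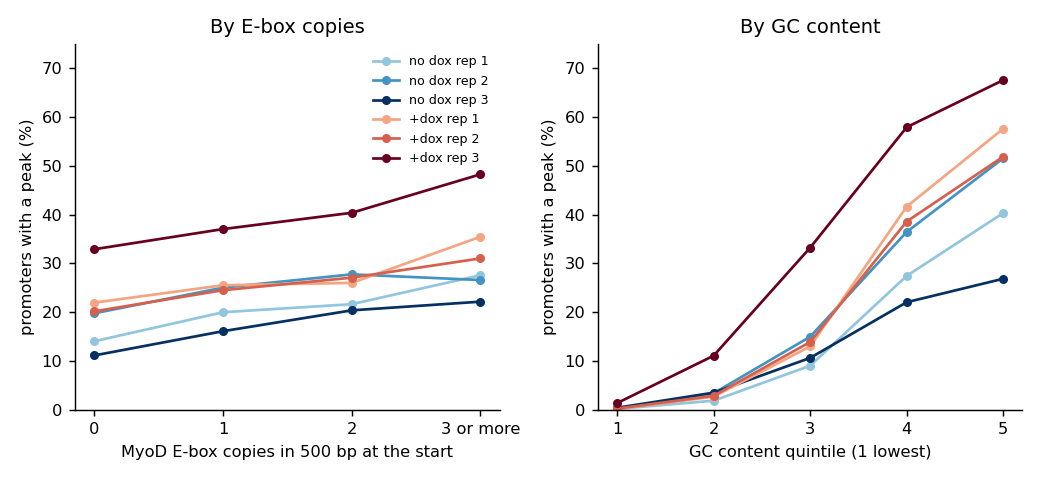
Share of annotated single protein-coding promoters with a MyoD1 peak (%, y axis) by the number of CAGCTG copies in 500 bp around the start (left) and by quintile of GC content (right), with a line for each of the 6 libraries and no error bars. The share climbs from 11.1 to 32.9% at 0 copies to 22.2 to 48.3% at 3 or more, and from 0.151 to 1.38% to 26.9 to 67.6% over the quintiles of GC content.

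Other E-boxes were counted in the same way, within quintiles of GC content, to set CAGCTG beside them. The difference for CAGCTG lay between 2.42 and 5.70 points in the 6 libraries. As means over libraries it was 4.05 points for CAGCTG, 3.16 for CAATTG and 1.64 for CACGTG, the E-box of Myc and of several other bHLH factors. The ranges of CAATTG (1.94 to 4.68) and CACGTG (0.429 to 3.63) overlapped that of CAGCTG. In +dox replicate 3 both were above CAGCTG, and in the other libraries both were below it. For CAGGTG, whose reverse complement is CACCTG, the share with a peak was lower in promoters that hold it, by a mean difference of -3.10 points. Without the quintiles the mean difference was 10.1 points for CACGTG and 5.27 points for CAGCTG. These comparisons between E-boxes were not tested.

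Peaks at members were higher than peaks at single promoters without CAGCTG. The median height percentile of member peaks was 53.3, 59.7 and 61.2 in the no dox libraries and 60.8, 57.6 and 78.5 in the +dox libraries. At single promoters without CAGCTG it was 43.0, 44.9 and 47.9 without dox and 49.3, 42.4 and 68.0 with dox. The members were thus higher by 10.3 to 15.2 percentile points in each of the 6 libraries, with a mean of 12.6 ± 2.14 points (SD, n = 6; exact two-sided sign-flip test, p = 0.031, adjusted p = 0.031). Taken as 3 pairs of libraries, this difference too had an exact p of 0.25, the smallest possible, and did not pass. Such heights were not particular to members. Regions with CAGCTG away from protein-coding promoters had median percentiles of 57.7, 60.7 and 61.2 without dox and 52.8, 57.6 and 85.6 with dox. A wide interval is likelier to hold CAGCTG by its width, and the median merged interval was 1500 bp at members and 1150 bp at the other single promoters. Of the 7102 single-promoter intervals 59.8% held CAGCTG, and of intervals of the same widths moved by 10 kb 48.7% did. Within quintiles of the width of the peak in each library, not of the merged interval, the mean difference in height was 9.83 points. With CAGCTG sought in a fixed window around the maximum it was 18.4 points.

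**Figure D2:**
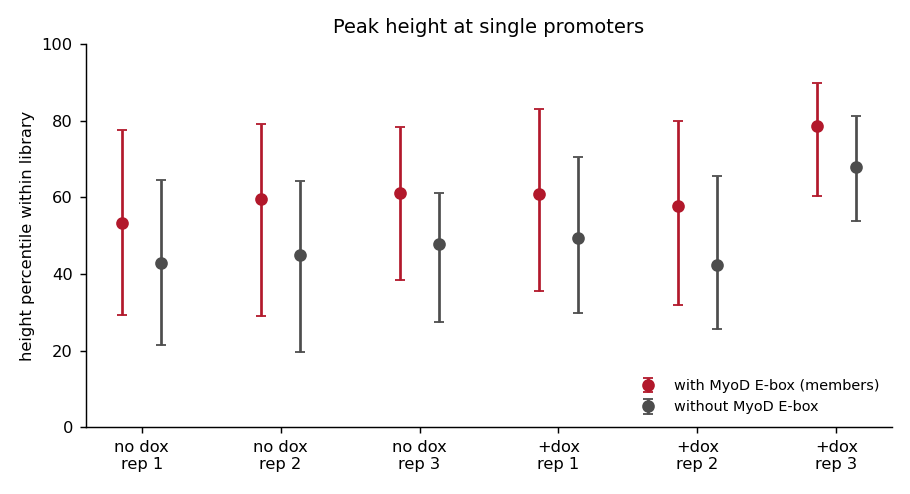
Height percentile of peaks within their library (y axis, 0 to 100) at members (red) and at single promoters without CAGCTG (grey) in each of the 6 libraries, with points for medians and bars for the middle 50% of peaks. The member median lies above the other in every library, by 10.3 to 15.2 points.

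The height difference between promoters with and without CAGCTG was compared between the groups. Exact permutation of 3 against 3 libraries allows no p below 0.1, so no such comparison could pass 0.05. These tests therefore cannot show that dox changed nothing. The difference was 10.3, 14.8 and 13.3 points without dox and 11.5, 15.2 and 10.5 points with dox, and these values overlapped. The +dox mean minus the no dox mean was -0.381 points (exact two-sided permutation test over 20 assignments, p = 1, adjusted p = 1 over 5 tests). Among the peaks of single promoters the share whose own interval held CAGCTG was 53.5, 53.8 and 62.8% without dox and 42.6, 48.7 and 55.0% with dox. Its change of -7.96 points, from 56.7 ± 5.29% to 48.8 ± 6.16% (SD, n = 3 each), had an exact permutation p of 0.3 (adjusted p = 0.75), and the groups overlapped. Peaks at members were narrower in +dox replicates 1 and 2, with medians of 650 and 800 bp, than in the 4 other libraries, at 850 to 1200 bp, and the part of width in that change was measured only by a fixed window around the maximum, where it was -2.17 points.

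Member maxima lay closer to CAGCTG than maxima at single promoters did to other E-boxes. Between 37.9 and 41.1% of member maxima were within 100 bp of a CAGCTG in the 6 libraries, and the median distance was 152.5 to 174 bp. The share was 39.2 ± 1.65% without dox and 39.3 ± 0.996% with dox (SD, n = 3 each), a difference of 0.118 points (exact two-sided permutation test, p = 0.9, adjusted p = 1). Where a single promoter held exactly 1 copy of an E-box, the maximum lay within 100 bp of a lone CAGCTG in 29.9 ± 1.66% of peaks (SD over 6 libraries, 2266 regions). For a lone CACGTG the share was 20.6 ± 3.16%, for a lone CAGGTG or CACCTG 16.4 ± 1.31%, and for the other 7 kinds of E-box 5.69 to 14.2%. The range for CAGCTG, 27.7 to 32.2%, lay above that of every other E-box.

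**Figure D3:**
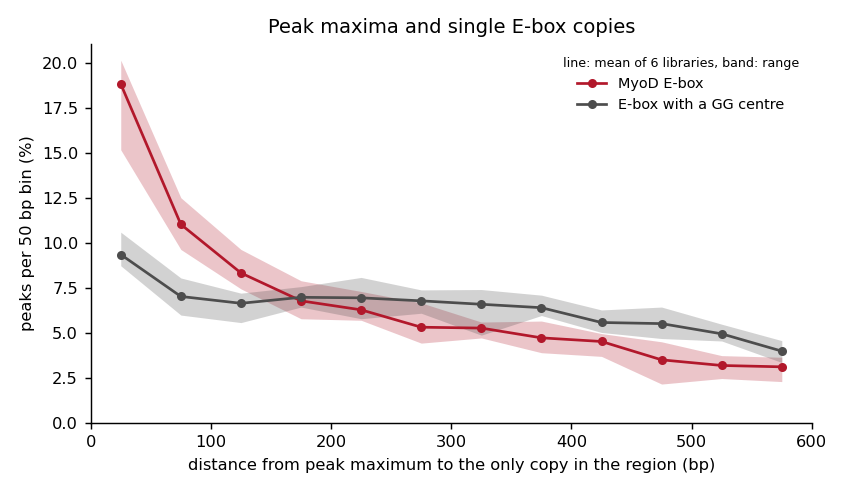
Distance from the peak maximum to the only copy of an E-box in the region (bp, x axis) against the share of peaks in each 50 bp bin (%, y axis), for CAGCTG (red) and for the E-box with a GG centre, CAGGTG (grey), with lines for the mean of 6 libraries and bands for their range. The nearest bin holds 18.9% of the peaks for CAGCTG and 9.37% for CAGGTG, and the curves cross before 200 bp.

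The bases beside the E-box differed with its distance from the maximum. Among the 432 single-copy members with the E-box within 50 bp of the median maximum, 47.2% had a purine just 5′ of the box on each strand (95% Wilson interval 42.6 to 51.9%). The share was 34.9% (31.2 to 38.9%) at 51 to 200 bp, over 587 members, and 29.4% (27.0 to 32.0%) beyond 200 bp, over 1247. A G just before the box was found in 48.1, 40.9 and 32.5% of these 3 sets. Median heights followed the same order, with percentiles of 63.0 to 82.2 across libraries for the nearest set and 43.0 to 73.2 for the farthest. The exception was +dox replicate 1, where the sets at 51 to 200 bp and beyond 200 bp were level at 55.8. These intervals cover counting error only, and the sets were not tested against each other.

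Most members held 1 copy (2266, 53.4%), while 1126 held 2, 477 held 3 and 376 held 4 or more. Members with more copies were called more often and higher. All 6 libraries called 30.01% of the members with 1 copy, 40.2% with 2, 49.5% with 3 and 65.2% with 4 or more. Their median percentiles ran from 48.5 to 75.3 across libraries with 1 copy and from 70.2 to 89.3 with 4 or more. The merged interval widened along with the copies, from a median of 1350 bp to 2375 bp, and its part in this order was not tested. The 26 members with at least 10 copies included 10 at keratin-associated protein genes (Krtap), a clustered family of hair proteins with near-identical repeats. Krtap9-5 and Krtap4-9 held 20 copies each, and the first had a peak only in no dox replicate 2 (3.16 CPM) and +dox replicate 3 (1.99 CPM). Fam83h, Krtap5-1 and Gm4559 held 17 each. Reads of near-identical family members may be split between them, so peaks at Krtap genes are uncertain.

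The maxima of members sat on the transcript start, with a median position 15 bp upstream of it, and 74.9% of them were within 250 bp. The CAGCTG nearest to the maximum had a median position 65 bp downstream, and 45.4% were within 250 bp of the start. It was in an intron in 1271 members, outside any transcript in 1127, in an untranslated exon in 992, in a coding exon in 677 and in a non-coding exon in 178. In 300 bp at the start the members had a median GC content of 65.7%, as against 66.7% at single promoters without CAGCTG and 55.7% at all annotated single promoters. The GC box, GGGCGG, was present in 70.6% of members on either strand, 77.6% of single promoters without CAGCTG and 39.7% of all annotated ones. The ETS word, CCGGAA, was present in 21.4, 29.1 and 14.7% of these sets and in 38.4% of bidirectional promoters. The AP-1 word, TGACTCA, was in 5.18, 3.22 and 4.41%, and in 1.86% of bidirectional promoters. The members were all on chromosomes 1 to 19 and X. There were 28.4 members per 100 annotated single promoters on chromosome 15, 23.9 on chromosome 8 and 21.0 on chromosome 11. On the others of these chromosomes there were 9.71 to 20.7. The 63 members in the last 100 bp inside the 1 kb limit had a median percentile of 51.8, and the 60 regions with CAGCTG in the first 100 bp outside it one of 49.7.

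The +dox libraries called more of the members than the no dox libraries did. The no dox libraries called 62.8, 78.3 and 52.6% of the 4245 members and the +dox libraries 81.5, 79.5 and 96.6%. Each +dox library thus called more members than any no dox library. The mean share differed by 21.3 points, from 64.6 ± 13.0% without dox to 85.9 ± 9.36% with dox (SD, n = 3 each). It is given as a description, since the members were chosen by calls in these same lists. Of them 149 and 291 had peaks in 3 and 2 +dox libraries and in no others (3.51 and 6.86%, against 3.38 and 9.82% of all regions). For no dox the counts were 0 and 19 (0 and 0.448%, against 0.0266 and 0.650% of all regions). At single promoters without CAGCTG the libraries called 44.9, 64.4 and 30.5% without dox and 78.2, 69.8 and 92.2% with dox. With lists of equal length the difference in the mean share of members was 1.92 points, and in replicates 1 and 2 alone 9.49 points. No dox replicate 3 called the fewest members with 13403 peaks, and +dox replicate 1 called 81.5% with 12535. The longest list, that of +dox replicate 3 with 53661 peaks, called the most. In the mean the median height percentile of members rose from 58.0 ± 4.18 to 65.6 ± 11.2 (SD, n = 3 each). This difference of 7.60 points had an exact permutation p of 0.5 (adjusted p = 0.833), where the smallest p possible is 0.1. Of the 3 +dox values 2 lay within the no dox range. These ranks come from lists of unequal length, and with equal lengths the difference was 0.746 points.

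Support across libraries was counted as well. Peaks in 6 of 6 libraries were found at 1614 members (38.0%), where 25.8% of all 18773 regions had them. They were found at 17.2% of single promoters without CAGCTG and at 35.7% of bidirectional promoters, close to the share of members. CAGCTG was sought in the merged interval, which spans the peaks of all libraries and is likelier to hold it where wide. Its median was 1500 bp at members and 1150 bp at the other single promoters. The part of width in the differences in support between these 2 classes was not tested. At least 2 of 3 libraries called 2628 members in both groups (61.9%, against 45.1% of all regions), 1168 with dox only by that rule (27.5% against 28.4%) and 96 without dox only (2.26% against 5.11%). At bidirectional promoters these shares were 60.6, 29.9 and 2%. A peak in each +dox library and in 0 of 3 libraries without dox was found at 149 members, or 3.51%, close to the 3.38% of all regions and below the 6.65% of single promoters without CAGCTG. The reverse pattern was found at 0 members, against 0.0266% of all regions. Of the 291 members called in exactly 2 +dox libraries and no others, 277 had a peak in +dox replicate 3.

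The 5 highest of the 149 members called only with dox are given first. Lrtm2, which encodes a leucine-rich repeat membrane protein, was at 16.0, 14.5 and 7.22 CPM in the +dox libraries. Gstm5, a glutathione transferase, was at 18.8, 11.1 and 3.74 CPM, and Fn3k, a fructosamine kinase, at 13.9, 9.45 and 4.48 CPM. Atmin reached 15.3, 9.45 and 3.49 CPM and Tnfaip8l1 18.1, 8.34 and 3.49 CPM. The median member maximum in these libraries was 11.2, 8.34 and 3.74 CPM, so that these 5 peaks stood near it or above it. With lists of equal length 7 members had the pattern of +dox only, and 13 had the reverse pattern. Of the genes in the lists described further on, Tcf12, an E-protein partner of MyoD1, had it, at 6.28, 3.89 and 1.49 CPM, as did Agrn, the nerve-derived organiser of the neuromuscular junction, at 7.67, 4.45 and 1.99 CPM, and Smarcb1, a subunit of the SWI/SNF remodelling complex, at 9.76, 3.34 and 1.74 CPM.

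The strongest members were high in all libraries. BC034090 had the highest mean percentile, with maxima of 179, 188 and 77.1 CPM without dox and 288, 224 and 126 CPM with dox. Angptl2, which encodes a secreted angiopoietin-like protein, was at 155, 179 and 45.4 CPM without dox and 478, 315 and 125 CPM with dox. Mafa, a Maf family leucine zipper factor, was at 114, 103 and 27.9 CPM without dox and 382, 255 and 87.2 CPM with dox. Replicate 3 was the lowest of its group at each of these 3 genes. Plec, the cytoskeletal linker plectin, differed in that +dox replicate 3 was among its highest values, with 101, 125 and 82.3 CPM without dox and 116, 172 and 172 CPM with dox. Pkm, muscle-type pyruvate kinase, was at 111, 116 and 44.4 CPM without dox and 334, 196 and 91.4 CPM with dox. The others of the 10 highest members were Rtkn, Esyt1, Lrrfip1, Ppp1r14b, an inhibitor of protein phosphatase 1, and Fem1c, a substrate receptor of a ubiquitin ligase, and their maxima ran from 31.7 CPM at Fem1c in no dox replicate 3 to 319 CPM at Lrrfip1 in +dox replicate 1. At each of these 5 promoters the highest +dox value was above every no dox value. The groups overlapped at all 5, since +dox replicate 3 was below the highest no dox value.

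The maximum signal of a member could be compared between the groups where all 6 libraries had a peak. With limma on log2 maximum CPM over all 4838 such regions, 0 of 1614 members rose and 0 fell at an adjusted p of 0.05 (0% of all regions in each direction), and the smallest adjusted p was 0.211. At an unadjusted p of 0.05 there were 457 members (28.3%), against 23.5% of all regions. The median log2 change of members was 1.00, a doubling on the CPM scale, with 1588 of 1614 higher with dox, and that of all regions was 0.91. The mean of the +dox libraries was thus higher at nearly all shared regions (96.1%), which does not mean that each +dox library was. Libraries of the same number deviated together, and with the replicate number as a block 957 members (59.3%) rose, against 52.4% of all regions, and 0 fell, against 0.062%. After quantile normalization, which removes a shift common to all regions, limma called 0 members with the block (0% of all regions higher and 0.0207% lower), 152 had an unadjusted p under 0.05, and the median log2 change was 0.11. Without the block 0 were called after this normalization, and 20 of 1614 members had an unadjusted p under 0.05, against 120 of all 4838 regions. Without +dox replicate 3, limma without the block called 828 of 1545 members higher (53.6%), against 39.3% of all regions.

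Counts of members whose groups did not overlap were read against the same share of all regions. The maximum of all 3 +dox libraries lay above that of all 3 no dox libraries at 380 members (23.5%), against 27.5% of all regions, and below it at 0 (0% of all regions). The share of members was thus below that of all regions.

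**Figure D4:**
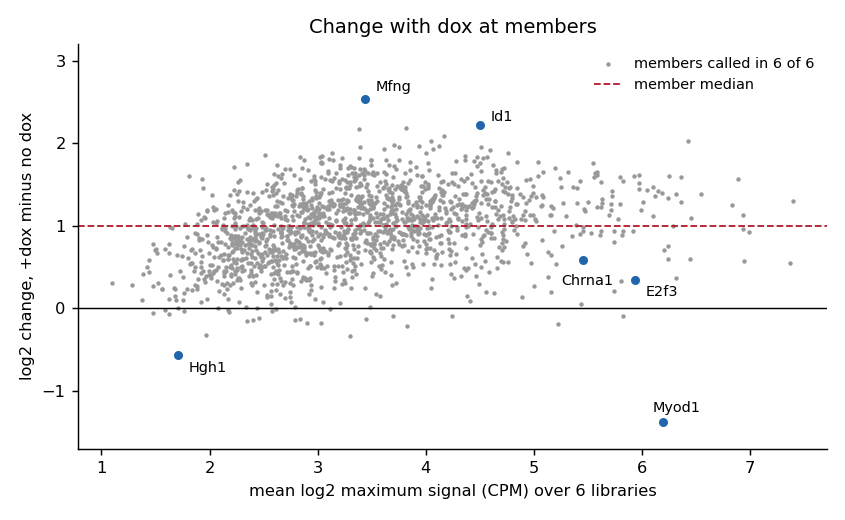
Change in log2 maximum signal from no dox to +dox (y axis) against the mean log2 maximum signal in CPM over 6 libraries (x axis) for the 1614 members called in every library, 1 point each. Nearly all points lie above 0, around the member median of 1.00 (dashed), with Mfng and Id1 far above it and Myod1 and Hgh1 below 0.

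The 5 members with the smallest p among those higher with dox were at Mfng, Id1, Skil, Egr1 and Gltp. None passed the adjusted threshold without the block (limma, adjusted p = 0.211 for each). Mfng, the fringe enzyme that sugars Notch, was at 9.77, 5.42 and 1.71 CPM without dox and 47.4, 30.6 and 12.2 CPM with dox, a log2 change of 2.54 ± 0.67 (SE) or 1.63 above the median of all regions. Its lowest +dox value was above its highest no dox value. Id1, whose product sequesters E-proteins, was at 11.6, 16.7 and 6.00 CPM without dox and 87.9, 49.5 and 27.1 CPM with dox, a log2 change of 2.22 ± 0.60 (SE). Skil, which encodes the TGF-beta repressor SnoN, was at 10.7, 12.2 and 4.29 CPM without dox and 54.4, 32.8 and 20.9 CPM with dox. Egr1, an early response zinc finger factor, was at 9.77, 9.48 and 6.86 CPM without dox and 45.0, 41.7 and 18.9 CPM with dox. Neither Id1, Skil nor Egr1 overlapped between groups. Gltp, a glycolipid transfer protein, was at 5.12, 9.03 and 2.57 CPM without dox and 43.2, 25.02 and 9.96 CPM with dox, again apart. With the block, limma's adjusted p was 2.16e-07 for Mfng, 1.45e-07 for Id1, 4.78e-06 for Skil, 1.08e-05 for Egr1 and 9.05e-06 for Gltp. With the block after quantile normalization none of the 5 passed. Their adjusted p from limma was then 0.119 for Mfng, 0.129 for Id1, 0.206 for Skil, 0.240 for Egr1 and 0.178 for Gltp.

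None of the 5 members with the smallest p among those lower with dox passed the test either. At Myod1 the maxima were 43.5, 1324 and 28.7 CPM without dox and 95.2, 52.8 and 18.9 CPM with dox, a log2 change of -1.37 (limma, adjusted p = 0.299) that rests on no dox replicate 2. Without that library it was 0.37. In no dox replicate 2 the maximum lay in a coding exon of Myod1 at chr7:46376951-46377000 and was 13.9 times the next highest library. The maxima of the other libraries lay in a coding exon of Myod1 as well. The transgene also carries Myod1 coding sequence, and how far its reads add to the values at Myod1 was not tested. Myog, the myogenin gene, showed the same library apart, with 3.72, 208 and 3.00 CPM without dox and no peak, no peak and 1.74 CPM with dox. The source of the high values of this library was not tested. Myod1 and Myog were the only members at which a library was more than 8 times the next. Hgh1 was at 4.65, 4.52 and 3.00 CPM without dox and 3.49, 4.45 and 1.25 CPM with dox, and the groups overlapped. The changes at Vps13d, a lipid transfer protein, Fmo1, a flavin monooxygenase, and Megf10, a receptor of muscle stem cells, were -0.32, -0.34 and -0.21 on the log2 scale, with adjusted p from 0.619 to 0.764 in limma, and all of these groups overlapped.

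Members were counted over lists of genes by role, beside the 4225 of 21862 protein-coding genes (19.3%) with a member. Of 27 myogenic regulators 14 had one, and 8 of these had one called in 6 of 6 libraries. In limma without the block none of the listed genes passed in either direction, and with the block 7 of the 8 fitted regions at myogenic regulators rose and none fell, with a median log2 change of 1.13. Beside this and the counts that follow stand the 52.4% of all regions and 59.3% of members that rose with the block, the median log2 change of 0.91 over all regions, and the 0 regions that rose with the block after quantile normalization. Id3 was at 11.6, 13.1 and 3.86 CPM without dox and 58.6, 36.7 and 13.7 CPM with dox, which did not overlap. Id2 was at 3.26, 4.06 and 3.43 CPM without dox and 16.7, 17.8 and 4.23 CPM with dox, its +dox replicate 3 just above the no dox range. Mef2a, a MADS-box partner of MyoD1, was at 10.7, 12.2 and 6.43 CPM without dox and 43.9, 15.01 and 12.2 CPM with dox, with +dox replicate 3 level with no dox replicate 2. Srf, the serum response factor, was at 16.3, 14.0 and 6.86 CPM without dox and 43.2, 31.7 and 10.5 CPM with dox, and overlapped through replicate 3. Pax7, the factor of satellite cells, was called only in no dox replicate 2 (2.26 CPM) and +dox replicate 1 (5.58 CPM).

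The neuromuscular junction and excitation-contraction coupling had members at 14 of 24 genes, while the sarcomere had them at 6 of 40. With the block 2 of 7 fitted regions of the first list and 2 of 4 of the second rose, none fell, and their median log2 changes were 0.73 and 1.02. The first count is below the 52.4% of all regions that rose with the block, and the second is near it. Chrna1 was at 40.7, 44.7 and 25.1 CPM without dox and 57.5, 71.7 and 37.6 CPM with dox, and overlapped through +dox replicate 3. Rapsn was at 20.9, 31.6 and 17.1 CPM without dox and 32.1, 33.9 and 33.1 CPM with dox, a small gap above the no dox range. Both genes were among the high members before dox. Chrnd, the receptor's delta subunit, was at 10.7, 9.03 and 7.29 CPM without dox and 12.5, 15.9 and 16.2 CPM with dox, which did not overlap. Chrng, its gamma subunit, had no peak in no dox replicate 2 and was otherwise at 5.12 and 4.71 CPM without dox and 7.32, 6.67 and 7.97 CPM with dox. Cacng1 was at 13.0, 9.03 and 7.71 CPM without dox and 36.3, 17.2 and 24.2 CPM with dox, which did not overlap. Jph1, junctophilin of the triad, was at 24.7, 15.4 and 8.14 CPM without dox and 105, 63.9 and 15.4 CPM with dox, and overlapped through +dox replicate 3.

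Des was at 28.9, 31.2 and 7.71 CPM without dox and 83.0, 53.9 and 15.7 CPM with dox, with the latter's replicate 3 inside the no dox range. Tpm2, a tropomyosin, was at 12.6, 21.9 and 14.999 CPM without dox and 44.6, 29.7 and 14.3 CPM with dox, also overlapping. Tnnt1, slow troponin T, was at 5.12, 8.58 and 4.29 CPM without dox and 13.2, 17.8 and 5.48 CPM with dox. Mylpf, a fast myosin light chain, was called only in the replicates numbered 3, at 1.71 CPM without dox and 1.25 CPM with dox. Fusion and cell adhesion genes had members at 10 of 26, and 3 of 5 fitted regions rose with the block, where 59.3% of members and 52.4% of all regions did. Mymk, the fusogen myomaker, was called only in no dox replicate 1 (2.33 CPM) and +dox replicate 3 (1.74 CPM), and Mymx, myomixer, only in no dox replicate 2 (3.16 CPM) and +dox replicate 3 (2.49 CPM). Alcam, a cell adhesion molecule, was at 32.1, 25.7 and 4.29 CPM without dox and 103, 50.05 and 18.4 CPM with dox.

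**Figure D5:**
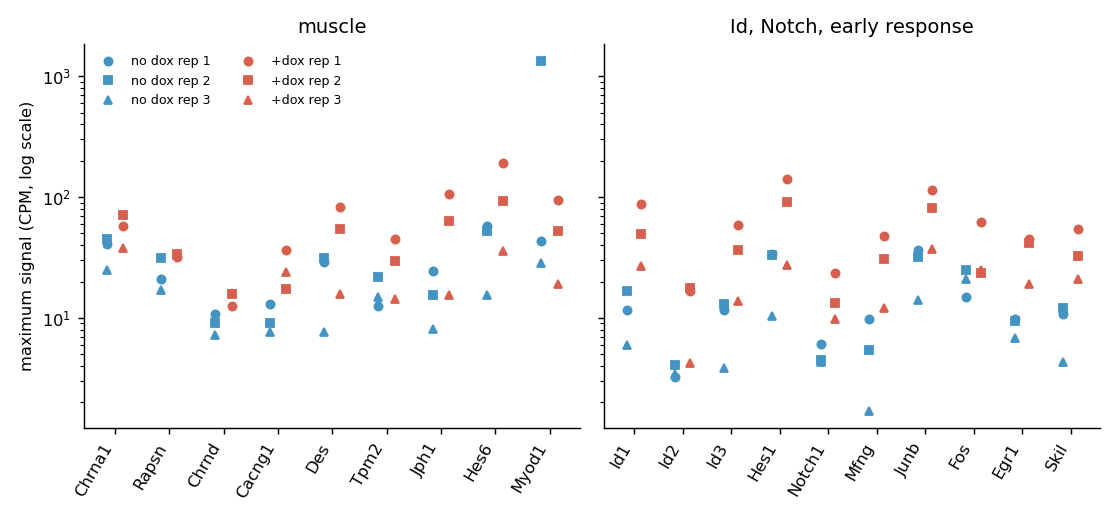
Maximum signal in CPM (y axis, log scale) in each of the 6 libraries at 9 muscle genes (left) and 10 genes of Id, Notch and early response factors (right), with blue for no dox, red for +dox and a shape for each replicate number. The point of no dox replicate 2 at Myod1 stands alone at 1324 CPM, and Id1, Mfng, Egr1 and Skil show all red points above all blue ones.

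Notch pathway genes had members at 8 of 18, and 3 of 3 fitted regions rose with the block, with a median log2 change of 1.56, where 52.4% of all regions rose and the median of all was 0.91. After quantile normalization with the block none of the 3 passed, with adjusted p from limma of 0.364 for Hes1, 0.762 for Hes6 and 0.431 for Notch1. Hes1, a transcriptional repressor, was at 33.5, 33.4 and 10.3 CPM without dox and 140, 91.2 and 27.6 CPM with dox. Hes6, which counteracts Hes1, was at 58.2, 51.9 and 15.4 CPM without dox and 192, 93.4 and 36.1 CPM with dox. Notch1, a receptor, was at 6.05, 4.52 and 4.29 CPM without dox and 23.4, 13.3 and 9.71 CPM with dox. Hes1 and Hes6 overlapped between groups through replicate 3, and Notch1 did not. Of the ligands, Jag2 had no peak in no dox replicate 3 and Dll1 none in no dox replicate 3 and +dox replicate 1.

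AP-1 and early response factors had members at 11 of 15 genes, the highest share of these lists, and 4 of 9 fitted regions rose with the block, below the 52.4% of all regions. Junb was at 36.3, 32.1 and 14.1 CPM without dox and 114, 80.6 and 37.1 CPM with dox, which did not overlap. Fos was at 14.9, 24.8 and 21.0 CPM without dox and 62.1, 23.4 and 24.9 CPM with dox, and overlapped. Cell cycle genes had members at 13 of 27 and 4 of 8 fitted regions rose with the block, near the 52.4% of all regions. E2f3, a factor of S phase entry, was already high without dox, at 44.7, 63.2 and 56.6 CPM, and was at 71.8, 67.3 and 68.0 CPM with dox. Cdkn1a, the p21 inhibitor of cyclin-dependent kinases, was at 6.52, 6.77 and 1.71 CPM without dox and 25.8, 12.8 and 3.98 CPM with dox.

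Muscle energy metabolism had members at 5 of 19 genes, each called in 6 of 6 libraries, and 3 of 5 rose with the block, near the 59.3% of all members. Slc2a4, the insulin-responsive glucose transporter, was at 9.77, 9.48 and 9.86 CPM without dox and 20.2, 22.8 and 19.4 CPM with dox, with a wide gap between the groups. Pdk4, a kinase that inhibits pyruvate dehydrogenase, was at 17.7, 21.0 and 9.43 CPM without dox and 65.6, 46.2 and 17.9 CPM with dox. Chromatin cofactors had members at 8 of 20 genes, and 1 of 3 fitted regions rose with the block, where 52.4% of all regions did. Smarcd3, the muscle subunit of SWI/SNF, was at 5.82, 9.48 and 13.7 CPM without dox and 9.76, 11.1 and 46.8 CPM with dox, where the replicates numbered 3 were the highest of their groups. Ribosomal protein genes had members at 10 of 91 and single promoters without CAGCTG at 25. The lists were not tested against other genes.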

How the data were processed

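CUT&RUN with anti-Flag antibody was analysed in 3 no dox and 3 +dox libraries. The authors ran nf-core/cutandrun on mm10 with a blacklist, scaled coverage to CPM and called peaks per library with SEACR in relaxed mode, and deposited for each peak its total signal and maximum signal, both in CPM. Whether a control library entered peak calling is not given in the sources used here, and CPM carries no spike-in scale. Depth was read from the CPM worth of 1 alignment, of which 100% of maxima were whole multiples within a small tolerance for rounding. Members, lists and tests were chosen with earlier results of these data known. Peaks on the mitochondrial chromosome (2) were left out. Starts and annotation were those of GENCODE M21 basic protein-coding transcripts. Height percentiles and shares were compared by exact permutation, and log2 maxima with limma 3.58.1 (trend, robust, no pseudocount, Benjamini-Hochberg) in R 4.3.3. Python 3.11.15, NumPy 2.4.6, pandas 2.3.3, SciPy 1.17.1 and Matplotlib 3.10.9 did the rest. The computations were tested on simulated data. Named members were the 10 highest called in all libraries, the 5 highest of each group-only pattern, the 5 with the smallest p in each direction, the 5 with the most copies, and members at listed genes. Deviations from the group means across regions were correlated between same-numbered libraries (Pearson r = 0.485, 0.267 and 0.628, against -0.560 to 0.265 for others). The replicate number was therefore taken to pair them, though for replicate 2 the value was level with the highest of the others. Alternatives changed list length, threshold, window, promoter distance, scaling, support and pairing, and left out each library.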

Additional observations from a re-analysis of the deposited data

How the results depend on the processing

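Of 157 values of the 11 main results under alternatives, 117 were taken as unchanged. For tested results this means the same direction and side of the threshold, and for counts an equal or similar number. For group differences tested by permutation no p could fall below 0.1, so their side was fixed and only the direction could change. Of 162 values for the 10 genes with a fitted change, 144 kept direction and side of the threshold, 15 came to pass it and 3 reversed. The difference in height between members and single promoters without CAGCTG was 12.2 to 13.5 points, and that in called share 5.04 to 5.54 points, when each library was left out, with the smallest p then possible, 0.0625. In replicates 1 and 2 they were 12.3 and 5.23 points (p = 0.125 for each), and with the replicate block 12.6 and 5.27 points with p = 0.25 for each, all the smallest exact p those designs allow. The change with dox in the height difference was 0.377 points in replicates 1 and 2 and 0.766 points with a 500 bp promoter distance, and -2.62 to 0.608 without single libraries. The change in the share of maxima within 100 bp was -0.294 points with 3 of 6 libraries required, -0.499 in replicates 1 and 2 and -0.628 to 1.13 without single libraries.

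Members called only with dox numbered 139 to 388 without single libraries, 7 with equal list length and 79 with one threshold. Members called only without dox numbered 0 to 12 without single libraries, 13 with equal list length, 4 with one threshold and 44 in replicates 1 and 2. Members rising in limma numbered 0 to 828 without single libraries, 957 with the replicate block and 892 in replicates 1 and 2, where 39.3% (without +dox replicate 3), 52.4% and 35.3% of all regions rose, and the block made no member fall. For the differences between groups tested by permutation, the paired design of 3 pairs allows no p below 0.25. Vps13d changed by 0.49 on the log2 scale by total signal. Without single libraries Myod1 ran from -2.39 to 0.37, Fmo1 from -0.70 to 0.20. The causes were not tested. Depth limits low peaks, since the lowest maxima rested on 4 to 6 alignments, and a member without a peak may hold signal below the threshold of its library.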
